A study of Homo sapiens with 6 samples.

Results

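FLG, FLG2, HRNR, RPTN, TCHH, TCHHL1 and CRNN, the 7 S100-fused genes of the epidermal differentiation complex on human chromosome 1, were examined for regions bound by FOSL2 and JUNB. Both belong to AP-1, a transcription factor made of 2 subunits, to which FOSL2 contributes as a FOS-type and JUNB as a JUN-type protein. The members were all binding regions with at least 1 base within 50 kb of the body of 1 of these genes, a rule set on position alone. It selected 27 of 75703 FOSL2 regions and 22 of 40061 JUNB regions on the autosomes and X. The windows of the 7 genes joined into 1 stretch of 430 kb, from 152034141 to 152464263 in hg38. Regions were mapped in HaCaT, a keratinocyte line from human skin that became immortal spontaneously, grown in DMEM with serum, penicillin and streptomycin. Each factor was immunoprecipitated with its own antibody in 3 ChIPmentation libraries, and ChIPmentation adds sequencing adapters with a transposase. Per factor, 1 deposited list stood for the 3 libraries together. No value therefore has a replicate error, no difference was tested, and sequencing depth is unknown. Both lists are labelled conservative overlaps, and a region missing from a list does not show that the factor was absent. Words such as FOSL2 alone or without JUNB refer to the lists only. Only binding was measured, so neither the expression of these genes nor keratinocyte markers were analysed here.

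S100-fused proteins join an N-terminal S100 domain, which binds calcium through EF hands, to long repeats, and most are built into the cornified layer of the epidermis or hair. Filaggrin (FLG) bundles keratin filaments and is later broken down to amino acids that hold water, and loss-of-function alleles of its gene cause ichthyosis vulgaris and predispose to atopic dermatitis. Filaggrin-2 (FLG2), hornerin (HRNR) and repetin (RPTN) are components of the cornified envelope, trichohyalin (TCHH) hardens the inner root sheath of the hair follicle, and cornulin (CRNN) is abundant in the squamous epithelium of the oesophagus. AP-1 dimers bind the palindrome TGACTCA or close variants and are known regulators of differentiation genes in keratinocytes.

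A region lay on a gene start at FLG and TCHHL1 only, in both cases in the FOSL2 list alone. The 300 bases around these 2 starts are therefore shown. They are RefSeq sequence of GRCh38.p14 (250 bases before and 50 after the start), read 5′ to 3′ on the minus strand, which codes for all 7 genes. Capitals mark the AP-1-type motif TGANTCA, searched on both strands. The first is at chr1:152325190-152325489 and the second at chr1:152089015-152089314.
FLG: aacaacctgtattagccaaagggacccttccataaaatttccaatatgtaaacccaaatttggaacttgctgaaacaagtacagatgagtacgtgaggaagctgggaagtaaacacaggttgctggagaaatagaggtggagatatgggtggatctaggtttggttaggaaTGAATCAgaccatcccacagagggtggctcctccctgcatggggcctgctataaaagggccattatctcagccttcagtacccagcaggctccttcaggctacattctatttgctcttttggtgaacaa
TCHHL1: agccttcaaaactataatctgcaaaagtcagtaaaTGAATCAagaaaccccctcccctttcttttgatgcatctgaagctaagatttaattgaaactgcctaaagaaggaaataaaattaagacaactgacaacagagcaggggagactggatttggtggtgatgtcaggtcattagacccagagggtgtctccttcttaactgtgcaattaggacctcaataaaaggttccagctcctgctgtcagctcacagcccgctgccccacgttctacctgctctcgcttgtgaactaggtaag

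TGANTCA was present in 6 of the 7 starts, all but that of HRNR, against 5.76% of the 15811 protein-coding starts in the RefSeq table. In all 6 it had the form TGAATCA or its reverse complement TGATTCA, which was found in 2.21% of those starts. The canonical form TGACTCA, held by 3.67% of starts, was in none of the 7. A match of letters is a description and does not show that a factor bound there. The FLG copy lay 73 to 79 bases before the start, and the others lay 58 to 64 (FLG2), 87 to 93 (CRNN), 89 to 95 (RPTN), 93 to 99 (TCHH) and 209 to 215 bases (TCHHL1) before it. The TATA sequence TATAAA, searched on the coding strand, was in 5 of the 7 starts (TCHH, RPTN, HRNR, FLG and CRNN) and in 6.92% of all starts. Its far edge lay 30 or 31 bases before the start in each of these 5. The forms TGAATCA and TATAAA were singled out after the sequences had been read.

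The FLG motif sat in a stretch of 31 bases that TCHH shared closely and HRNR in part. The best match to the FLG stretch in 5 other starts is shown with the 7 motif positions in capitals. Matches were found without gaps on the coding strand.
FLG: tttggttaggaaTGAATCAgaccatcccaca
TCHH: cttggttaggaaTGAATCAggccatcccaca
HRNR: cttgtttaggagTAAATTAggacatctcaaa
CRNN: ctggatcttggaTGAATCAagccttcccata
RPTN: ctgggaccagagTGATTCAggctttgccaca
FLG2: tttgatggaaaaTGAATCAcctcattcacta

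TCHH was identical to FLG at 29 of the 31 positions, HRNR at 22, CRNN at 20, and RPTN and FLG2 at 19 each. Next best matches had 15 identical positions in TCHH, CRNN and FLG2, 16 in RPTN and 17 in HRNR. The stretch was centred on the motif, which itself gave 7 of the identities at TCHH, CRNN and FLG2 and 6 at RPTN. The counts of CRNN, RPTN and FLG2 thus rest partly on the motif, and whether they share the bases around it was not tested. At HRNR, whose start lacked the motif, 5 of the 7 motif positions were identical to FLG. The best match in TCHHL1 had 16 identical positions, against 15 for its next best, and did not hold the motif.

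**Figure D1:**
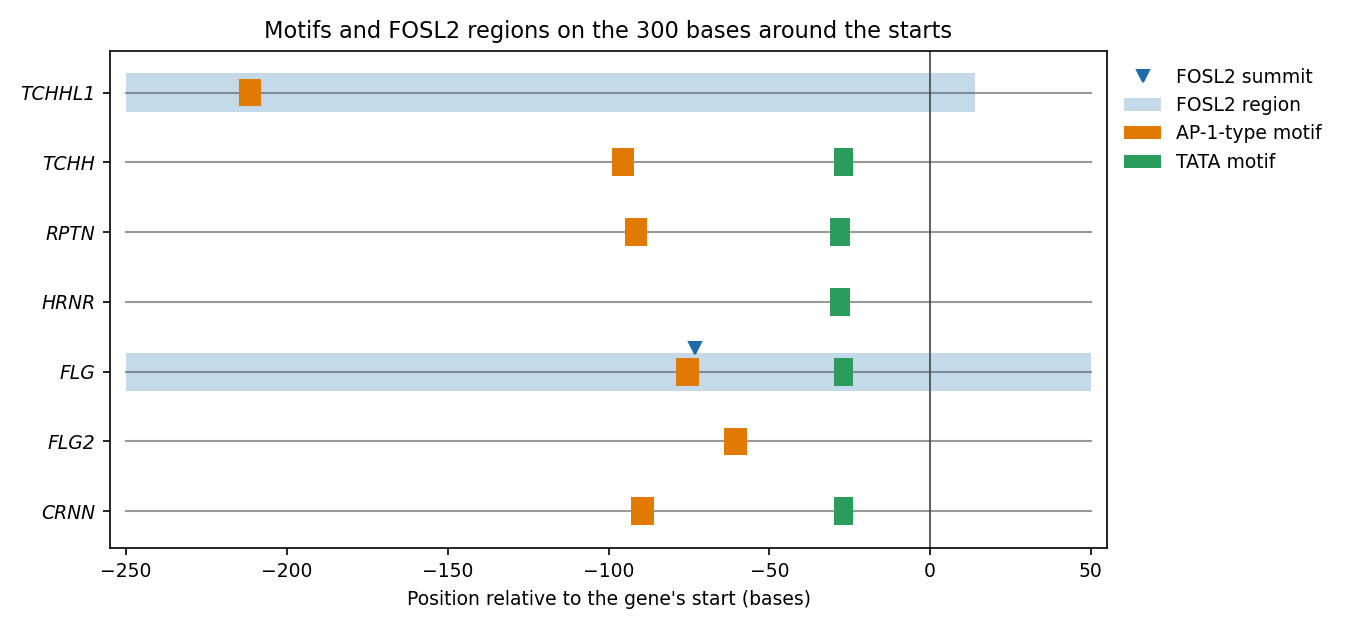
The 7 gene starts are drawn from 250 bases before to 50 after the start (position 0), with AP-1-type motifs in orange, TATA motifs in green and FOSL2 regions shaded. The FOSL2 summit at FLG falls on the motif 73 to 79 bases before the start, and the summit of the TCHHL1 region lies outside the drawn stretch.

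At FLG the FOSL2 region ran from 152325116 to 152325586, 471 bp wide, with a fold enrichment of 5.57 and a −log10 q of 34.7. Fold enrichment is the authors' deposited signal value for each region, read from the layout of the list as a ratio of signal over background. The FLG value was in the middle of its list, with 50.1% of FOSL2 regions lower. Its summit, the base of highest signal, was at 152325312, 73 bp upstream of the start, which is the last base of TGAATCA on the coding strand. Over all protein-coding starts that held TGAATCA and a FOSL2 summit, 1 of 82 summits lay on the motif, that of FLG, and 31.7% lay within 20 bp of it. For any TGANTCA, 15 of 321 FOSL2 summits (4.67%) lay on the motif, at a median distance of 25 bp. The share that would lie on a motif by position alone was not computed, so the place of the FLG summit is a description only.

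The JUNB list held no region on the FLG start, which does not show that JUNB was absent there. The nearest JUNB summit was 22.1 kb upstream of that start, just beyond the 3′ end of FLG2. Within 50 kb, FLG had 3 FOSL2 and 2 JUNB regions, the fewest of the 7 genes for either factor, while the median protein-coding gene had 5 FOSL2 (interquartile range 3 to 8) and 3 JUNB regions (1 to 5).

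TCHHL1, a trichohyalin-like gene, had a FOSL2 region from 152089050 to 152089761 over its start, with a fold enrichment of 4.60 and a −log10 q of 21.5. Its summit was 305 bp upstream, 90 bp from the motif. A FOSL2 region on the 300 bases around the start was thus found at 2 of the 7 genes and a JUNB region at 0 of 7. Of the 15811 protein-coding genes with a start sequence, 20.6% had a FOSL2 and 22.7% a JUNB region there. Over these genes, TGANTCA was in 11.5% of the 3254 starts with a FOSL2 region and in 4.26% of the 12557 without one. For JUNB these shares were 8.06% of 3587 and 5.08% of 12224. TGAATCA alone, the only form found in the family, was in 3.17% of starts with a FOSL2 region and in 1.96% of those without. For JUNB its shares were nearly equal, at 2.398% with a region and 2.152% without. For either factor the contrast was smaller for TGAATCA than for TGANTCA, and none was tested.

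Upstream of the starts, most genes of the family had stronger regions bound by both factors. FLG2 had the strongest pair within 10 kb of any of the 7 genes, at 10.3 (FOSL2) and 9.04 (JUNB) in fold enrichment. The FOSL2 region ran from 152367083 to 152368301 and the JUNB region from 152367307 to 152368077. Their summits were 12 bp apart, 7.66 and 7.65 kb upstream of the start, and 91.2% of all FOSL2 and 94.0% of all JUNB regions were lower. FLG2 also had a weak JUNB region of 2.96 without FOSL2, 1.40 kb beyond its 3′ end.

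HRNR had 2 shared pairs within 10 kb, both upstream. The nearer pair, 1605 bp (FOSL2) and 1574 bp (JUNB) from the start, was weak, at 2.74 and 3.65. The farther pair, 4.83 and 4.79 kb from the start, had fold enrichments of 10.0 and 6.11. A further pair lay 20.6 kb upstream, at 8.83 and 4.36, where 81.1% of FOSL2 and 41.5% of JUNB regions were lower. At the pair before it these shares were 89.3% and 69.97%.

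RPTN had regions on both sides. Upstream, pairs at 3.72 kb (6.49 for FOSL2 and 5.47 for JUNB) and 8.81 kb (7.25 and 7.01) were followed by a pair 23.9 kb away (7.09 and 5.92). Downstream, a weaker pair lay 3.45 kb from the 3′ end, at 4.32 and 3.71. Beyond it were a FOSL2 region of 5.99, with its summit 10.1 kb from the 3′ end, and a JUNB region of 3.31 at 11.4 kb, which did not touch each other.

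TCHH had no region of either factor on its body. Upstream, the first was a pair at 12.4 kb, with 8.04 for FOSL2 and 4.66 for JUNB. Downstream, the first summits lay 10.3 kb from its 3′ end, in a pair near TCHHL1. The next gene downstream, TCHHL1, had beside its start region a FOSL2 region of 3.12 at 2.36 kb upstream and that same pair, 6.99 kb upstream of TCHHL1, of 5.66 and 2.47. The FOSL2 region of that pair was 796 bp wide, reached to within 10 kb of TCHH, and was the only region counted for TCHH at that distance. Its JUNB partner was 126 bp wide, with a −log10 q of 2.54.

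CRNN had a single region within 10 kb, of FOSL2 alone, at 3.64 and 5.90 kb upstream. A second FOSL2-only region lay 12.7 kb upstream, at 5.41. The strongest pair of the whole stretch came next, 22.5 kb upstream, with fold enrichments of 10.7 (FOSL2, 152436171 to 152437426) and 9.19 (JUNB, 152436214 to 152437517). Of all FOSL2 regions 93.1% were lower, and of all JUNB regions 94.6%. Another pair at 28.8 kb was weaker, at 5.70 and 2.88. Downstream of CRNN, between it and FLG2, pairs lay 15.9 kb from the 3′ end (7.54 for FOSL2 and 6.39 for JUNB) and 22.1 kb from it (7.59 and 4.89).

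Other regions lay more than 10 kb from these genes. FOSL2 alone was found 27.4 kb upstream of HRNR (4.61), 34.8 kb downstream of FLG (2.76) and 10.5 kb downstream of CRNN (2.28). A pair of 2.16 (FOSL2) and 2.49 (JUNB), the lowest FOSL2 value of the stretch, lay 32.8 and 32.7 kb downstream of TCHHL1.

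**Figure D2:**
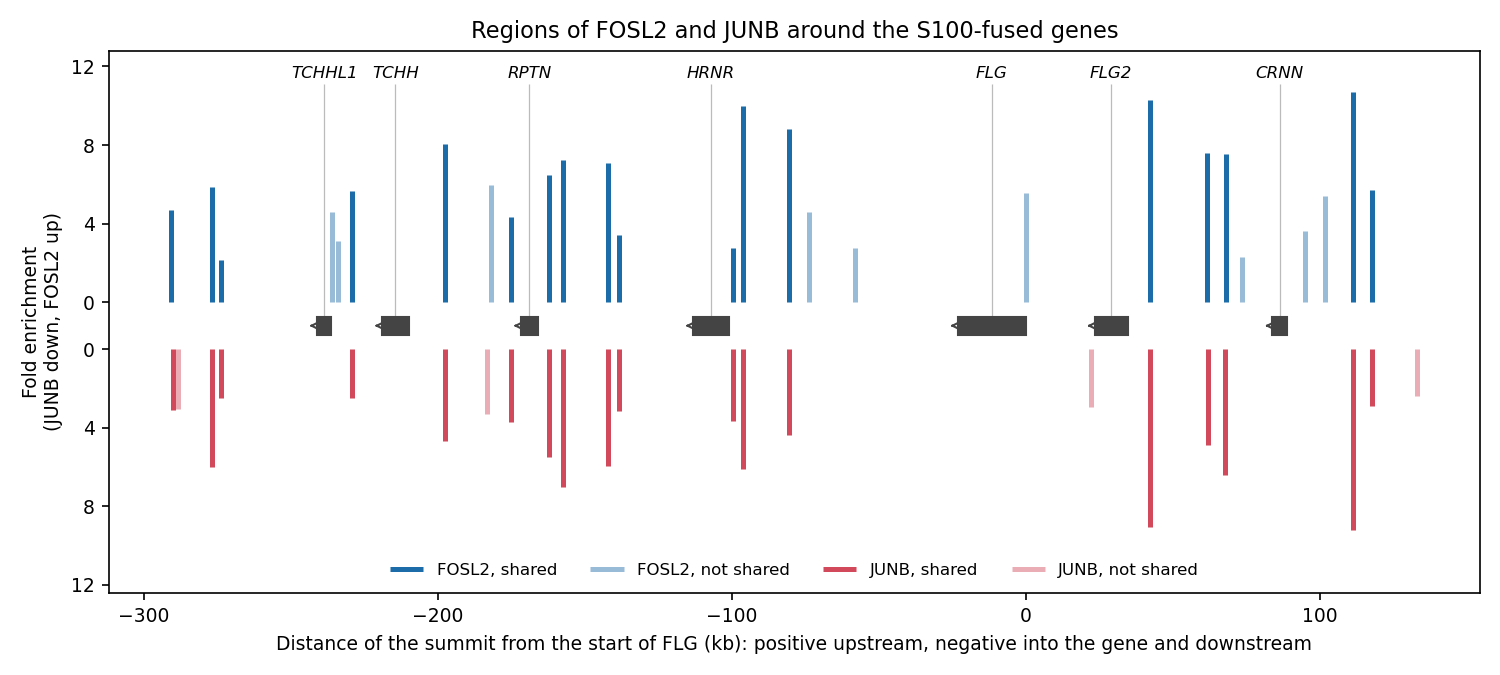
Bars give the fold enrichment (authors' value) of each FOSL2 region upward and each JUNB region downward, against the distance of its summit from the FLG start in kb. Grey boxes are gene bodies with arrows in the direction of transcription. The tallest bars of both factors stand upstream of FLG2 and CRNN, and FLG carries 1 FOSL2 bar at its start.

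Counted within 10 kb of the body, all 7 genes had a FOSL2 region, against 76.9% of all 19970 protein-coding genes. A JUNB region was found at 4 of the 7 (TCHHL1, RPTN, HRNR and FLG2), against 64%, and a FOSL2 region shared with JUNB at 5 of the 7, against 53.3%. The count of 5 includes TCHH, where the JUNB partner of the FOSL2 region lay itself farther than 10 kb from the body. Neighbouring genes can share a region, so the 7 are not independent. Within 50 kb, all 7 had a FOSL2 region (92.9% of all genes), a JUNB region (83.9%) and a shared one (77.6%), which is near the background. The number within 50 kb ran from 3 (FLG) to 9 (HRNR) for FOSL2 and from 2 (FLG) to 7 (RPTN and HRNR) for JUNB.

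None of the 49 regions was centred in a gene of the family. The 7 bodies made up 71.2 kb, 16.5% of the stretch, and held 0 FOSL2 and 0 JUNB summits. Of all protein-coding genes between 4924 and 23075 bp long, the range of the 7, 34.9% had a FOSL2 summit in the body and 25.5% a JUNB summit. The FOSL2 regions at FLG and TCHHL1 reached over the start into the body, and no JUNB region touched one. Whether reads could be placed in the near-identical repeats of these genes was not tested.

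Close to the genes, summits lay mostly on the upstream side. Within 10 kb, 10 FOSL2 summits were upstream of a gene of the family and 1 was downstream, against 57.4% upstream over the 15811 protein-coding genes with a strand. For JUNB, 6 were upstream and 2 downstream, against 60.7% upstream over all genes. With the first 1 kb on either side left out, 8 FOSL2 summits were upstream and 1 downstream, against 50.02% upstream over all genes. For JUNB, 6 and 2 remained, against 47.6%. Over the whole stretch, by the nearest gene of the family, 17 FOSL2 summits were upstream and 10 downstream, and 12 JUNB summits were upstream and 10 downstream. These small counts were not tested.

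**Figure D3:**
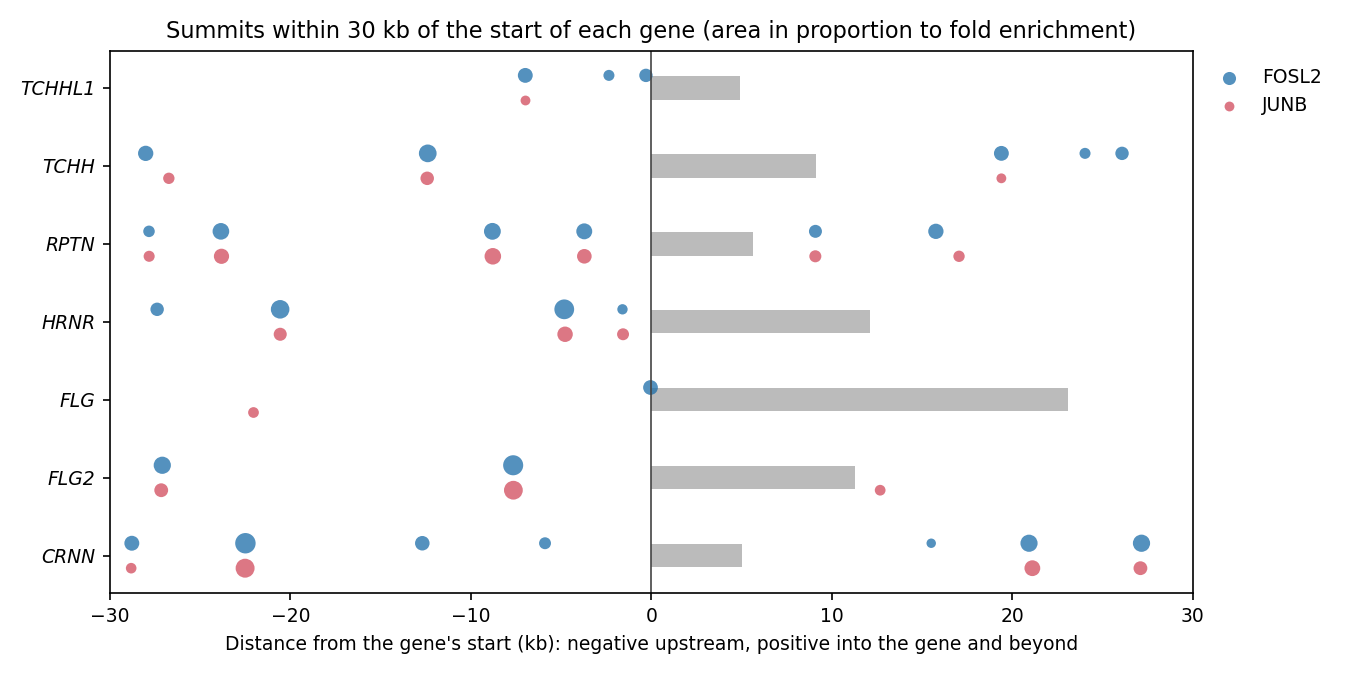
For each gene, circles mark FOSL2 (blue) and JUNB (red) summits against their distance from the gene's start in kb, upstream to the left, with an area in proportion to fold enrichment. Grey bars are the gene bodies, and no circle is centred on one. FOSL2 at FLG is centred 73 bp before the start, and large pairs at HRNR and FLG2 lie 4.8 and 7.7 kb before it.

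Summits were counted in the 8 spaces between neighbouring genes, which run from S100A11, a free-standing S100 gene, to LCE5A, a late cornified envelope gene. The space of 52.8 kb between RPTN and HRNR had 4 FOSL2 and 4 JUNB summits, and all were in shared pairs. The 49.2 kb between FLG2 and CRNN had 4 FOSL2 and 3 JUNB summits, with the highest median fold enrichments of the spaces, 7.57 and 6.39. The 23.5 kb between FLG and FLG2 had 1 summit of each factor, at opposite ends and not shared. Per 10 kb this space had 0.426 summits of either factor, while the 8 spaces ran from 0.424 to 1.74 for FOSL2 and from 0.385 to 0.786 for JUNB.

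The space between TCHHL1 and TCHH was the shortest, at 17.3 kb, and had 3 FOSL2 summits and 1 JUNB summit. There were 2 FOSL2 and 3 JUNB summits between S100A11 and TCHHL1 (47.1 kb), and 3 of each between TCHH and RPTN (38.1 kb). The 78.0 kb between HRNR and FLG had 5 FOSL2 and 3 JUNB summits. The 96.5 kb between CRNN and LCE5A, which runs on beyond the stretch examined, had 7 and 4.

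The longest stretch without a FOSL2 region, 57.7 kb from 152267411 to 152325115, ended at the FLG start and covered nearly the whole gene. The longest without JUNB, 101.9 kb from 152245194 to 152347111, held all of FLG. On chromosome 1, 87.1% of FOSL2 gaps and 87.3% of JUNB gaps were shorter, and the median gaps were 15.1 and 20.8 kb.

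**Figure D4:**
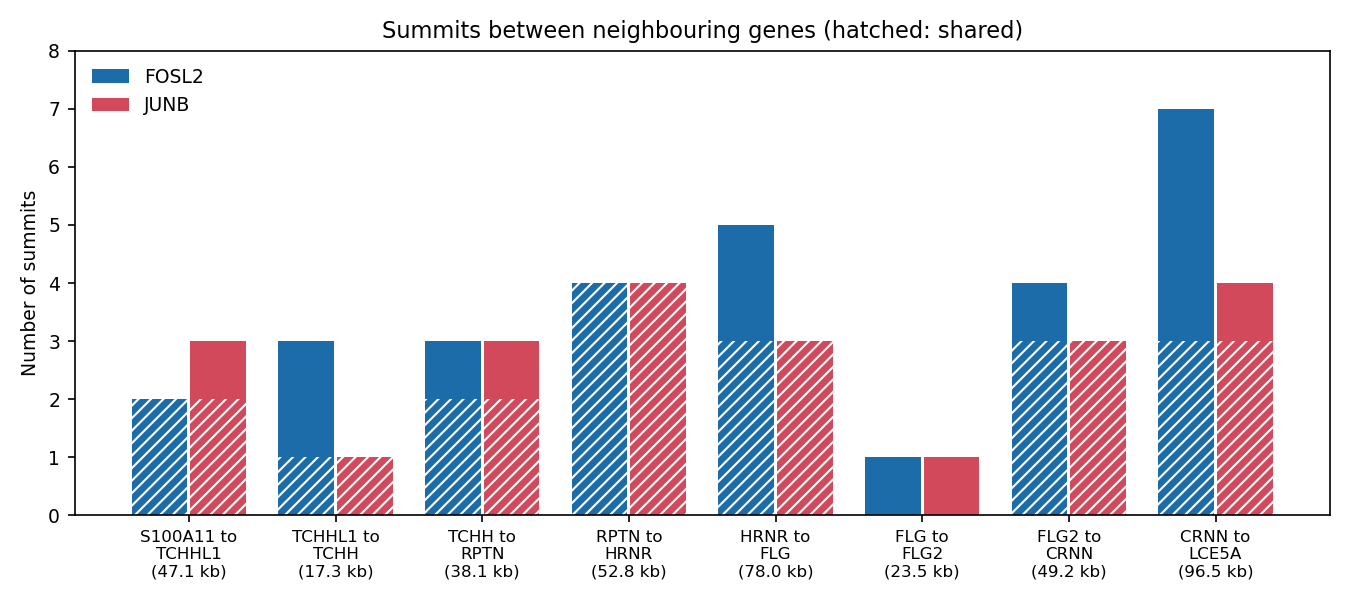
Bars count FOSL2 (blue) and JUNB (red) summits in each space between neighbouring genes, in the order of the chromosome, with its length in kb under the axis and shared regions hatched. The space from RPTN to HRNR is hatched throughout, and the space from FLG to FLG2 has 1 summit of each factor and no hatching.

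Over the stretch, regions lay at 62.8 per Mb for FOSL2 and 51.1 per Mb for JUNB, against 30.2 and 17.0 per Mb over chromosome 1. The chromosome values cover its whole length up to the last gene, stretches without genes included. The stretch itself was chosen around genes. Set beside other genes, the 7 had 3 to 9 FOSL2 regions within 50 kb, against a median of 5 (interquartile range 3 to 8). For JUNB they had 2 to 7, against 3 (1 to 5). Of the FOSL2 regions 18 of 27 touched a JUNB region (66.7%, 95% Wilson interval 47.8 to 81.4), against 41.1% in the whole list. Of the JUNB regions 18 of 22 touched a FOSL2 region (81.8%, 61.5 to 92.7), against 78.5%. The intervals cover counting error only. They treat neighbouring regions of 1 list as independent. The share in the whole list lay below the interval for FOSL2 and inside it for JUNB, which is not a test. Within 10 kb of a body, 7 of 12 FOSL2 regions were shared (58.3%).

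The summits of the 18 pairs lay a median of 28 bp apart, against 31 bp over all shared FOSL2 regions, and 15 of the 18 were within 50 bp, against 66.9% over all shared FOSL2 regions. The closest pair, 1 bp apart, was upstream of TCHHL1, and the widest, 606 bp apart, was in S100A11. FOSL2 fold enrichment in the stretch had a median of 5.66 (range 2.16 to 10.7), against 5.56 in its whole list, and 15 of 27 regions were above the list's median. JUNB had a median of 4.04 (range 2.38 to 9.19), against 4.79, and 9 of 22 were above. In each list 2 regions, those of the FLG2 and CRNN pairs, were in the top 10%, while 4 of the 27 FOSL2 and 5 of the 22 JUNB regions were in the lowest 10%.

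Shared regions had the higher medians. FOSL2 regions with JUNB had a median fold enrichment of 6.79 (range 2.16 to 10.7), and those without had 4.60 (2.28 to 5.99). JUNB regions with FOSL2 had a median of 4.77 (2.47 to 9.19), and those without had 3.00 (2.38 to 3.31). The ranges overlapped for both factors, and only 4 JUNB regions lacked FOSL2. Across the 18 pairs the fold enrichments of FOSL2 and JUNB correlated at a Spearman rho of 0.77, and their log2 values at a Pearson r of 0.75. This is a description over neighbouring sites that share their libraries. Neither the medians nor the correlations were set beside the whole lists, so none is shown to be particular to this stretch.

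**Figure D5:**
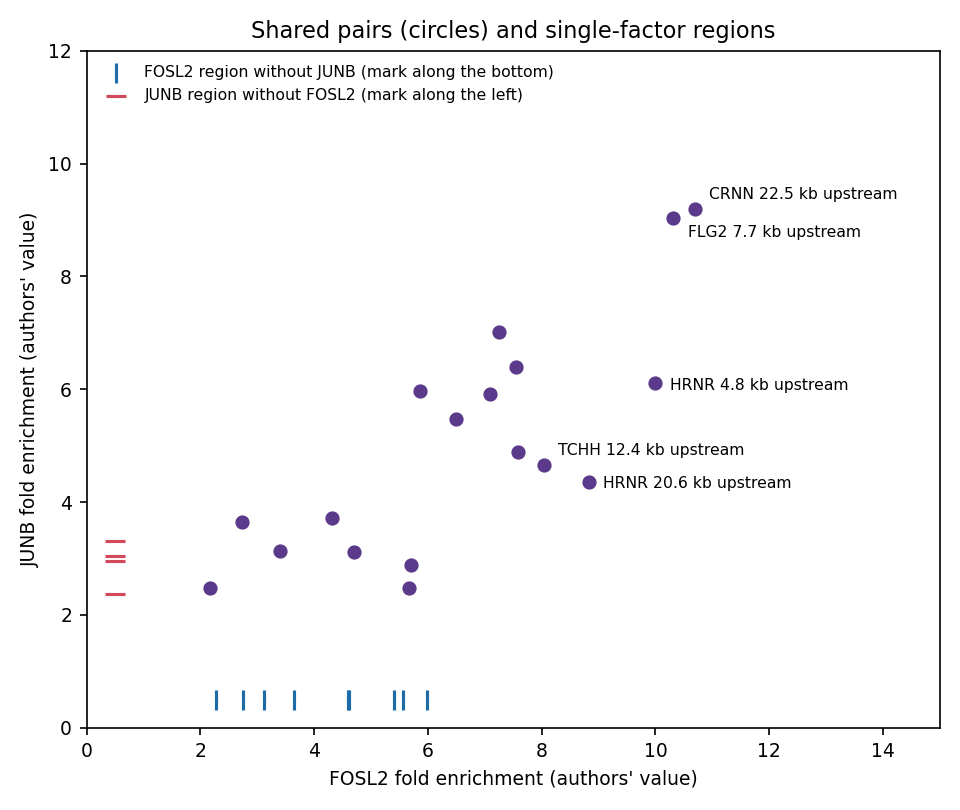
Circles show FOSL2 against JUNB fold enrichment (authors' values) for the 18 shared pairs, and marks along the bottom and left show the 9 FOSL2 and 4 JUNB regions without a partner. The pairs upstream of CRNN (10.7 and 9.19) and FLG2 (10.3 and 9.04) stand highest for both factors, and single-factor regions stay at or below 5.99 for FOSL2 and 3.31 for JUNB.

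At the edges of the rule, the outermost regions inside it were the pair in S100A11, 49.5 kb (FOSL2) and 48.9 kb (JUNB) downstream of TCHHL1 by the summit, at 4.70 and 3.11. The outermost on the other side were a FOSL2 region of 5.70 at 28.8 kb and a JUNB region of 2.38 at 44.3 kb upstream of CRNN. The first regions outside lay 54.5 kb (FOSL2, 3.72) and 59.2 kb (JUNB, 7.40) downstream of TCHHL1, and 73.5 kb (FOSL2, 6.80) and 88.4 kb (JUNB, 5.50) upstream of CRNN.

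Genes whose products process filaggrin or build the cornified layer were counted beside the family. Of 24 such genes, 22 had a FOSL2 region within 10 kb of the body, against the 76.9% above, and 20 had a JUNB region, against 64%. The values that follow are the highest of each factor within 10 kb, taken separately, and may come from different regions. The highest JUNB values were at CDSN, encoding corneodesmosin (13.2 for FOSL2 and 10.4 for JUNB), and KLK7, a desquamation protease (9.93 and 9.08). They were followed by SPINK6, an inhibitor of kallikreins (10.2 and 9.03), and ASPRV1, the aspartic protease that cleaves profilaggrin (9.49 and 8.35). CASP14, a protease of filaggrin breakdown, and LORICRIN, the major cornified envelope protein, lay farther than 10 kb from any region of FOSL2 or JUNB. A long gene has more room for a region. ASPRV1, whose RefSeq body spans 154659 bp, had 14 FOSL2 and 7 JUNB regions, against 1 and 2 at CDSN and 2 and 1 at SPINK6. Where the ASPRV1 regions lie relative to its coding sequence was not examined.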

How the data were processed

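Binding was measured by ChIP-seq in HaCaT cells, with 3 libraries of FOSL2 and 3 of JUNB. The submitters' processing notes name Bowtie2, SAMtools 1.8, Picard 1.89, MACS2, deepTools and hg38, without order or options. The sources used here do not give the control or the rule that combined the libraries. The deposited score, a whole number, was not used. The deposited signal value was read, from the layout of the lists, as a ratio of signal over background, and the deposited −log10 q as the peak caller's. The deposited summit offset was added to the start, and positions count from 1. Only the autosomes and X were used, which dropped 1 FOSL2 row.

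Gene bodies came from the RefSeq table of GRCh38.p14, and strands and starts from its promoter sequences, in which all 7 genes matched. An overlap of at least 1 bp made regions shared. Shares have 95% Wilson intervals. Python 3.11.15, pandas 2.3.3 and scipy 1.17.1 were used, and overlap counting was tested on simulated intervals. Every region within 10 kb and the strongest beyond were named. Genes, lists and rules were chosen with earlier results of these data known. No test across many features was run, because 1 list per factor gives no spread. Alternatives were other distances, overlaps and −log10 q of at least 10.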

Additional observations from a re-analysis of the deposited data

How the results depend on the processing

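No paired analysis was possible because each factor had 1 list made from its 3 libraries, and for the same reason no library could be left out. Counts that moved by over 1.5 times did so with the distance. Within 10 kb in place of 50 kb of a body, 12 FOSL2 and 8 JUNB regions were counted. A FOSL2 region was found at 2 of the 7 genes on the body alone and at 4 within 5 kb, in place of 7 within 10 kb. A JUNB region was found at 0 on the body alone and at 7 within 50 kb, in place of 4. With −log10 q of at least 10 in both lists, 100% of the 15 JUNB regions were shared, in place of 81.8%. Of 40 alternatives, 33 stayed within 1.5 times the count or within the 95% interval of the share or median, and 7 did not. The alternatives drew largely on the same regions, so they are not independent checks, and some could not move. A FOSL2 count of 7 genes within 10 kb, for example, had to be 7 within 50 kb. The depth behind the weak regions is unknown.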

Other observations

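Some regions of the stretch lay at other genes. JUNB alone had a region of 3.05 from 152036915 to 152037279 over the start of S100A11, with a −log10 q of 9.99. A shared pair of 5.86 (FOSL2) and 5.97 (JUNB) lay inside LOC101927949, an uncharacterised long noncoding RNA gene between S100A11 and TCHHL1.

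CCDST, a long noncoding RNA gene on the plus strand, runs from 152189303 to 152366692 across HRNR, FLG and FLG2. It held 6 FOSL2 and 4 JUNB summits, among them those described at HRNR and the FLG start. The summits nearest to its annotated start lay 2235 bp (FOSL2) and 2243 bp (JUNB) from it, in a weak pair of 3.40 and 3.14.

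Among the 34 other starts of protein-coding genes from LCE5A to LORICRIN, 10 held TGANTCA and 3 held TGAATCA. Over all 15811 starts the shares were 5.76% and 2.21%. The 10 were IVL, SPRR1A, SPRR3, SPRR1B, SPRR2A, SPRR2F, SPRR2G, LELP1, PRR9 and LORICRIN. This comparison was chosen after the sequences had been read and was not tested.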
